A study of Mus musculus with 20 samples.

Results

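The IRAK kinases, the ubiquitin ligases TRAF6 and TRAF3, the adaptor Tollip and the TAK1 kinase complex carry or restrain signals from the lipopolysaccharide (LPS) receptor, among them that towards NF-κB. The genes followed here were Irak4, Irak1, Irak2, Irak3, Tollip, Traf6, Traf3, Map3k7 (the gene of TAK1), Tab1 and Tab2, which are 10 of the 21887 protein-coding genes of the RefSeq table. A peak was assigned to a gene when its centre lay within 10 kb of the gene's span on mm10. Peaks of different libraries that overlapped by at least 1 bp were joined into 1 site. The 10 genes held 87 of the 96700 sites, made up of 280 peaks, and 69 of the 87 sites lay inside the gene itself.

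CUT&RUN was carried out in mouse macrophages derived from bone marrow, grown from marrow for 5 days with M-CSF and fixed briefly with formaldehyde. In CUT&RUN, an antibody tethers a nuclease to chromatin, and the DNA released around the bound protein is sequenced. Cells were wild type (WT; the design text gives the strain as C65BL6) or knockout (KO), and were untreated (control) or given LPS at 100 ng/mL for 30 min or 8 h. The design text names NOS1 as the gene knocked out, while the title concerns SOCS1, so the groups are called KO throughout. With antibodies against p65 and against SOCS1 there were 12 libraries, 1 for each antibody, genotype and treatment. IgG libraries, 6 in number, served the authors as background, and 2 libraries labelled as internal controls did not enter the comparisons. With 1 library per group there was no spread between replicates and no test could be made. Ratios are given with an exact 95% interval (conditional binomial, Clopper-Pearson) for counting error only. The interval treats tags as independent. PCR copies are not independent molecules, so it can be too narrow even for counting error.

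When LPS engages TLR4, the adaptor MyD88 gathers IRAK4 with IRAK1 or IRAK2 into a signalling platform. TRAF6 then builds ubiquitin chains that act as a scaffold: TAB2 binds them, TAB1 activates TAK1, and TAK1 switches on the IKK and MAP kinase cascades that release p65, the RelA subunit of NF-κB, into the nucleus. IRAK3, also called IRAK-M, lacks strong kinase activity and is a macrophage brake on this route, Tollip restrains IRAK1, and TRAF3 serves the interferon branch through TBK1 while limiting non-canonical NF-κB. SOCS1 is best known as an inhibitor of JAK kinases downstream of cytokine receptors.

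Promoter sequences were available from RefSeq (GRCm38.p6, the assembly of mm10) for 9 of the 10 genes, as 12 entries that run from 250 bases before to 50 bases after a start. At least 1 peak overlapped 9 of these entries, belonging to 7 genes. The promoters of Traf3 and Map3k7 are shown because they were the 2 that held a κB consensus, the NF-κB element, marked in capitals. Those of Irak4 and Irak3 are shown because more libraries had a peak over them than over any other of the 12 entries.
Traf3 promoter, chr12:111166120-111166419, plus strand: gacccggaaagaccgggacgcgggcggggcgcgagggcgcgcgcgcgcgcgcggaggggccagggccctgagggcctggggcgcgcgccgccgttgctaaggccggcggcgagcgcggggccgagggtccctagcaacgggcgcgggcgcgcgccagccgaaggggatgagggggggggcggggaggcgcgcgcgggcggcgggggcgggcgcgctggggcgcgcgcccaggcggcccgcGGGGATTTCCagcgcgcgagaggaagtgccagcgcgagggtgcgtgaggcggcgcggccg
Map3k7 promoter, chr4:31963857-31964156, plus strand: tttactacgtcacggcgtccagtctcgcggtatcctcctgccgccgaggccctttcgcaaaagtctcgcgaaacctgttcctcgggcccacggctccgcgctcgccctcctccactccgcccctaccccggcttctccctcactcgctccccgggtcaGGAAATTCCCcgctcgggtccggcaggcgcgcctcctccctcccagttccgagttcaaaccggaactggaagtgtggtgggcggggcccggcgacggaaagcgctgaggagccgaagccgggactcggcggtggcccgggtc
Irak4 promoter, chr15:94543410-94543709, plus strand: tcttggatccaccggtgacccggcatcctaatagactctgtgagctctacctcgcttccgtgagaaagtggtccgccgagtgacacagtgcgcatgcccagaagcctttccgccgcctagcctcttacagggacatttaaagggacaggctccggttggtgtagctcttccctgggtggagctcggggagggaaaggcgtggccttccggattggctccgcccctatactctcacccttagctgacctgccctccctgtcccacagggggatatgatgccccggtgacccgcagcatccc
Irak3 promoter of the inner start, chr10:120201548-120201847, minus strand: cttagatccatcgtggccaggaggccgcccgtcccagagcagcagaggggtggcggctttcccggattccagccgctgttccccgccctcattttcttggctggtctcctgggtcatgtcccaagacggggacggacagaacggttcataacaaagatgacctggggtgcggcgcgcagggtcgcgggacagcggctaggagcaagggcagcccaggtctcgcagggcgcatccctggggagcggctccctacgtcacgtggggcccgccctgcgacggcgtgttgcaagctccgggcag
Irak3 promoter of the outer start, chr10:120202081-120202380, minus strand: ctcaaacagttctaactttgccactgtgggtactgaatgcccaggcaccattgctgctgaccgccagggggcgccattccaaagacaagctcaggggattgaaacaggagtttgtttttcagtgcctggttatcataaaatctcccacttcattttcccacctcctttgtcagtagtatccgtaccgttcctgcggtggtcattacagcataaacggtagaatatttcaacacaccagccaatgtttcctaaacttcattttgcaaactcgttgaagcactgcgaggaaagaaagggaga

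The κB consensus was searched on both strands and occurred in 4.51% of 32851 promoter entries of the same length. In Traf3 the match GGGGATTTCC began 10 bases before the start, and no peak of the 12 libraries covered it. The Map3k7 match GGAAATTCCC, on the opposite strand, began 92 bases before the start and lay under 1 peak, that of SOCS1 in WT cells at 30 min. The AP-1 element TGANTCA (7.81% of entries) and the GAS element TTCNNNGAA (8.3%) occurred in none of the 12 entries. The PU.1 core GGAAGT (23.8%) occurred in those of Irak1, Irak2, Traf3, Map3k7 and Tab2. These matches describe letters in a window and are not evidence of binding.

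The libraries held 6.93 M to 18.4 M tags (10 M are 10000000), the deepest being p65 in KO cells at 30 min. Heights are the authors' normalized tag count, tags in the peak per 10000000 tags of the library; the lowest in a list was 6.51 to 10.3. Peaks had 1 fixed width per library, from 222 bp for p65 in KO cells at 30 min to 492 bp for p65 in KO cells at 8 h, and a wider peak takes in more tags. In the SOCS1 library of untreated KO cells the score, which allows 1 tag per bp, was 42.1% of the tags of the median peak, against 54.0% to 90.1% in the others. The authors' expected count of IgG tags in a peak has a floor of 0.5. In untreated KO cells 91.43% of p65 peaks and 87.97% of SOCS1 peaks were at that floor. In the other libraries 14.67% to 42.97% were. SOCS1 had 24270 peaks in untreated KO cells and 9438 in untreated WT cells. The part of the IgG floor in the calls of untreated KO cells was not tested. Of the macrophage marker genes, 6 to 8 of 8 had a peak in each library. Neutrophil markers had 0 to 5 of 6, lymphocyte markers 1 to 5 of 7 and dendritic cell markers 3 or 4 of 4. Among all protein-coding genes, 32.4% to 65.4% had a peak, depending on the library. Marker counts of this kind describe peaks near a gene, not its expression, and were not used to name the cells.

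In WT cells, 7 of the 10 genes had a p65 peak before LPS, 9 at 30 min and 8 at 8 h. Among all protein-coding genes the shares were 32.7%, 61.9% and 55.9%. In KO cells the p65 counts were 7, 10 and 9 (35.8%, 65.4% and 55.5% of all genes). SOCS1 peaks were called at 5, 7 and 6 genes in WT cells (32.4%, 47.7% and 38.6%), and at 9, 8 and 9 genes in KO cells (55.3%, 51% and 44.6%). All 12 counts lay above the background share, but the members also span more DNA, with a median of 39594 bp against 17169 bp for all genes.

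**Figure D1:**
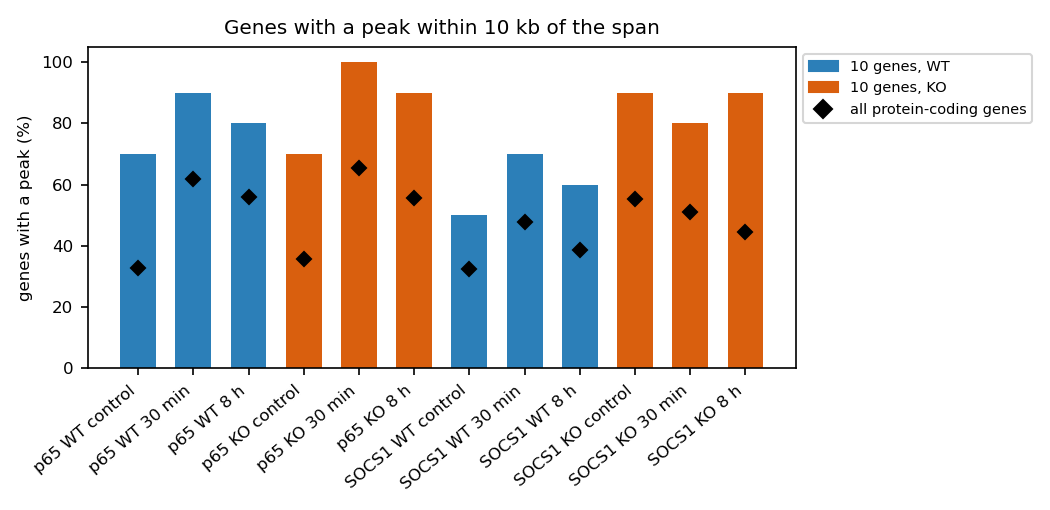
Bars show the percentage of the 10 genes with a peak within 10 kb of the span in each of the 12 peak lists (blue WT, orange KO), and diamonds the percentage of all 21887 protein-coding genes. The bars run from 50% (SOCS1, WT control) to 100% (p65, KO 30 min), each above its diamond.

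The genes differed widely in how many sites they held. Irak2 had 26 sites and Irak3 18, while Tab2 had 12, Traf3 10, Traf6 and Map3k7 5 each, Irak4, Irak1 and Tollip 3 each, and Tab1 2. Of the 87 sites, 38 were called in 1 library (43.7%, against 51.9% of all sites) and 17 in 6 or more (19.5%, against 14.3%). A single site, upstream of Traf3, was called in all 12. Both antibodies marked 39 sites in some library (44.8%, against 33.9% of all sites), p65 alone 24 (27.6%, against 40.6%) and SOCS1 alone 24 (27.6%, against 25.5%). The median p65 height at 30 min over member sites was 38.3 in WT cells (23.6 over all sites) and 32.95 in KO cells (21.4). Before LPS it was 18.2 (18.9) and 21.05 (21.1), and at 8 h 24.1 (20.8) and 45.9 (30.5). For SOCS1 the WT medians in control, 30 min and 8 h cells were 26 (24.5), 18.75 (19.5) and 19.5 (18.4). The KO medians were 35.4 (29.2), 30.7 (29.7) and 26.05 (24.4).

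**Figure D2:**
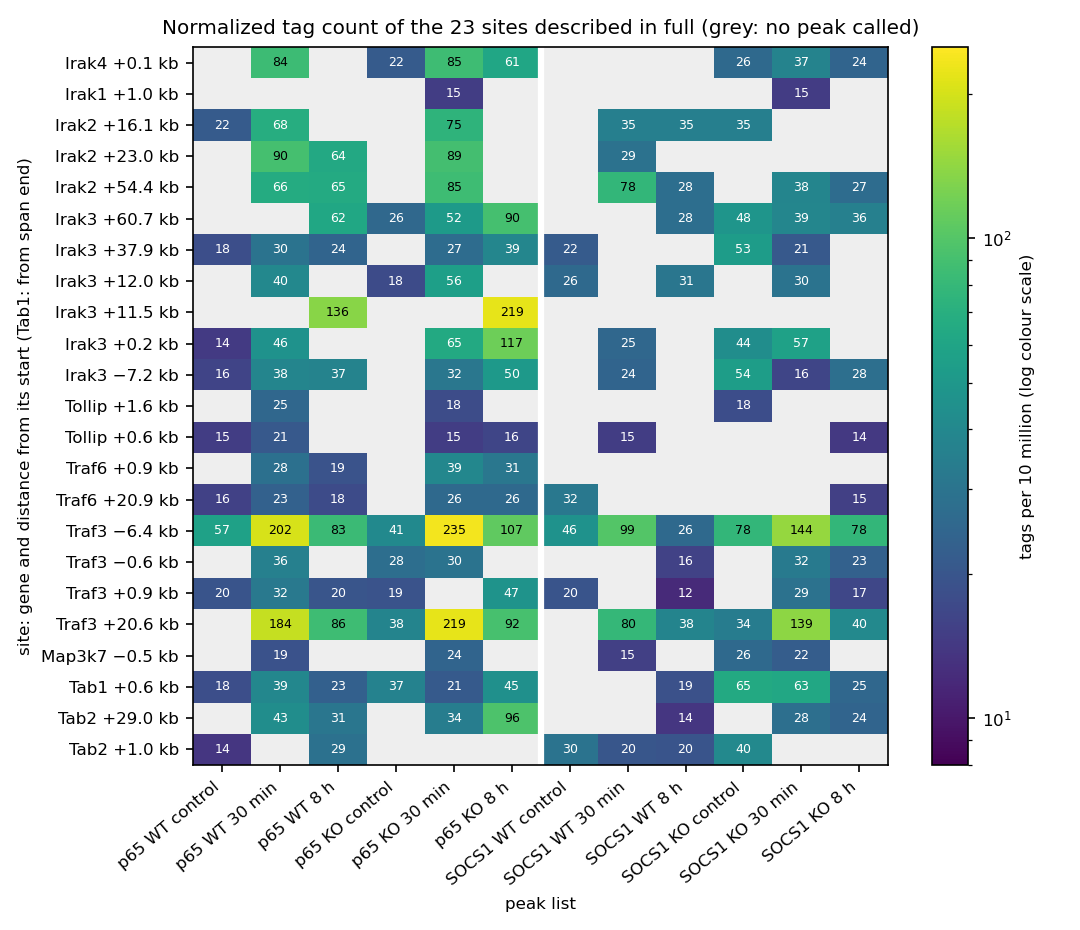
Colour and number give the normalized tag count (tags per 10000000, log colour scale) at the 23 sites described in full, one row per site, in the 12 peak lists; grey cells had no called peak. The rows at Traf3 −6.4 kb and +20.6 kb reach 235 and 219 with p65 in KO cells at 30 min, and Irak3 +11.5 kb has values at 8 h alone (136 and 219), next to the row at +12 kb, which begins 6 bp away.

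Irak4, the kinase that starts the cascade, had its main site at its own start (chr15:94543456-94544126), a region that also overlaps a promoter of the neighbouring gene Pus7l. With p65 the height was 84.4 at 30 min in WT cells, with no peak called in control or 8 h cells. In KO cells p65 gave 21.6, 85.4 and 61.4 in control, 30 min and 8 h cells. The 30 min height was thus nearly the same in both genotypes (KO over WT 1.01, interval 0.789 to 1.3). In KO cells it was 3.95 times the control value (2.45 to 6.74), against a median ratio of 1.88 over all sites called in both KO libraries. SOCS1 peaks at this start were called in KO cells alone, at 26.1, 37.3 and 24.4. A call needed at least 4-fold over IgG. The WT p65 peak of 84.4 at 30 min was 4.02-fold over its IgG library, which also served SOCS1. The KO peaks here were 5.87-fold to 42.01-fold over theirs. The part of IgG in the missing WT calls was not tested. A weaker p65 site 22.2 kb into the gene reached at most 23.6.

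Irak1, the kinase that IRAK4 activates, lay lowest of the 10. No peak was called at it in any of the 6 WT libraries or in untreated KO cells. After LPS, KO cells had p65 peaks of 14.9 at 30 min inside the gene (0.996 kb from the start, chrX:74022677-74023167), and of 10.0 at 30 min just before the start. At 8 h a wider peak of 10.9 lay across the start. SOCS1 peaks in KO cells were 14.8 at 30 min and 12.9 at 8 h. The lowest called heights in these KO libraries were 6.51 at 30 min and 9.09 at 8 h for p65, and 8.79 and 10.3 for SOCS1. The KO library at 30 min was the deepest for p65, and the part of depth in the WT and KO difference was not tested.

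Irak2, the paralogue thought to sustain the signal, carried a row of p65 sites along its body after LPS. The highest in WT cells lay 23 kb into the gene (chr6:113661321-113661597). Its p65 height was 90.1 at 30 min and 64.2 at 8 h in WT cells and 89.2 at 30 min in KO cells, with no peak called before LPS in either genotype or in KO cells at 8 h. SOCS1 had 1 peak there, of 29.2, in WT cells at 30 min. From 30 min to 8 h the WT ratio was 0.713 (0.521 to 0.968), close to the median of 0.702 over all sites, and 1.02 when divided by that median.

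The Irak2 site 54.4 kb into the gene (chr6:113692589-113693057), near its far end, was marked by both antibodies. Its p65 heights were 66.4 and 65.2 at 30 min and 8 h in WT cells and 85.4 at 30 min in KO cells. SOCS1 stood at 78.5 at 30 min in WT cells, the highest SOCS1 value on Irak2, and at 27.9 at 8 h. The WT ratio of 8 h to 30 min was therefore 0.981 (0.705 to 1.36) for p65 but 0.355 (0.219 to 0.559) for SOCS1. In KO cells SOCS1 gave 38.4 and 27.0, so that at 30 min KO stood at 0.49 of WT (0.318 to 0.739), although SOCS1 peaks were wider in the KO library. The gene Tatdn2 starts within 10 kb of this site.

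At 16.1 kb into Irak2 (chr6:113654270-113654808), p65 stood at 21.5 in untreated WT cells and at 68.3 at 30 min, a ratio of 3.18 (1.87 to 5.75), or 1.72 when divided by the median of all sites. The KO height at 30 min was 74.6. SOCS1 heights here were 35.4 and 35.2 at 30 min and 8 h in WT cells and 35.4 in untreated KO cells. No p65 peak was called at these 3 Irak2 sites in KO cells at 8 h. A site 30.2 kb into the gene, chosen after its values were seen, was the only Irak2 site inside the gene with p65 peaks in all 4 LPS libraries, at 57.8 and 51.0 in WT cells and 86.0 and 90.0 in KO cells. Over all Irak2 sites, p65 was called at 4, 10 and 5 in WT cells (control, 30 min, 8 h) and at 3, 7 and 3 in KO cells. SOCS1 was called at 2, 9 and 6 and at 6, 8 and 2. Some of these flank sites lie inside Vhl on one side and Tatdn2 on the other.

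**Figure D3:**
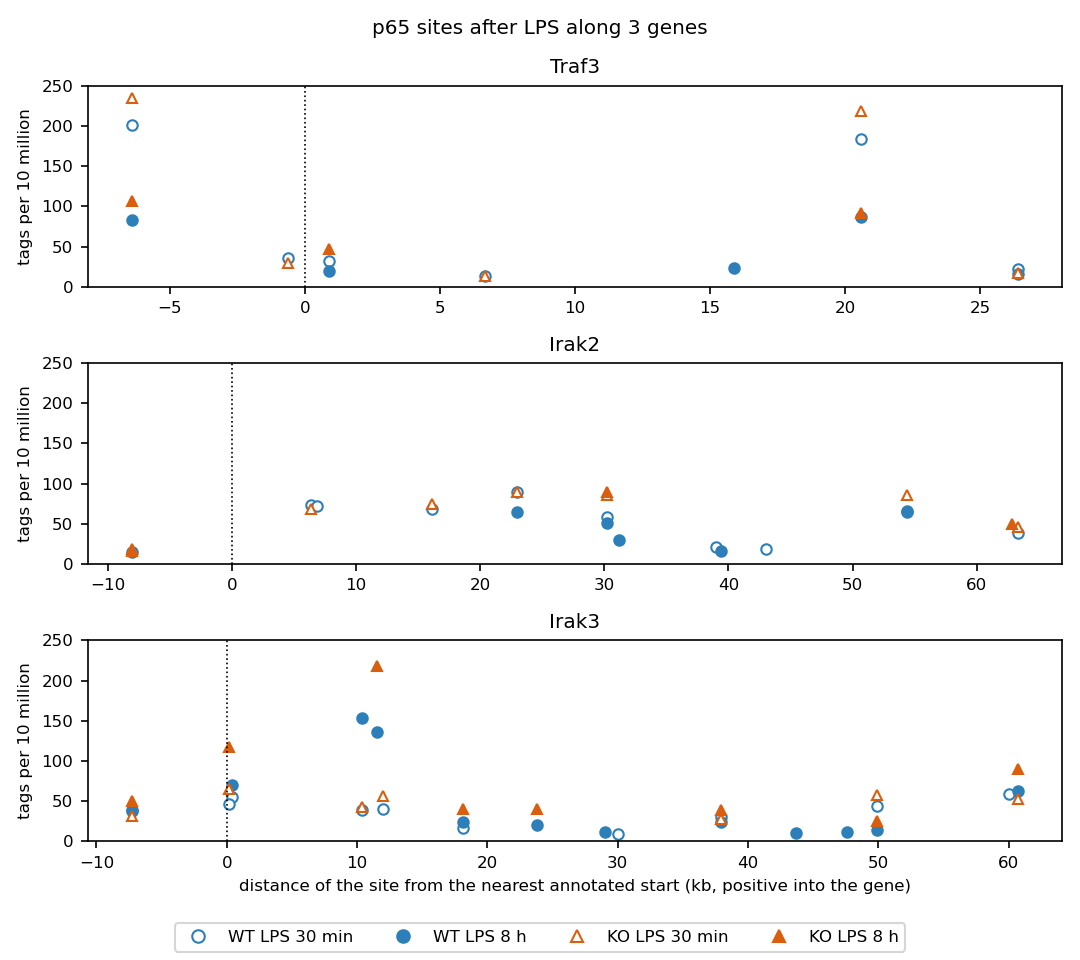
Each point is a p65 site after LPS, by its distance from the nearest annotated start (x axis, kb, positive into the gene) and its normalized tag count (y axis, tags per 10000000), for Traf3, Irak2 and Irak3 (open 30 min, filled 8 h; circles WT, triangles KO). Traf3 has 2 high sites (up to 235), Irak2 has several between 64.2 and 90.1, and Irak3 is highest 10.4 to 11.5 kb into the gene at 8 h.

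Irak3, the brake of the family, had its highest p65 values at 8 h, between 10.4 and 11.5 kb into the gene. This did not hold at every site of the gene: 49.9 kb from the start, p65 at 8 h stood at 0.301 of 30 min in WT cells (0.155 to 0.546) and 0.445 in KO cells (0.282 to 0.68). The site 11.5 kb into the gene (chr10:120189854-120190346) was called at 8 h with p65 alone, at 136 in WT cells and 218.7 in KO cells, and in none of the other 10 libraries, although a separate site with other peaks ended 6 bp away. The KO value was 1.61 times the WT value (1.3 to 1.99), but KO peaks at 8 h were wider. Per bp of peak the ratio was 0.778, and divided by the median of all sites it was 0.977. A neighbouring site 10.4 kb into the gene (chr10:120190979-120191353), chosen after its values were seen, had p65 at 38.7 at 30 min and 153 at 8 h in WT cells. That ratio of 3.96 (2.88 to 5.53) was the only one of 2 or more among the 19 member sites called at both times in WT cells, where 4.29% of all sites reached it; with sites joined by centres within 500 bp there were 2. In KO cells this neighbour had 42.3 at 30 min and no called peak at 8 h. SOCS1 was called at it at 8 h, at 26.8 in WT and 39.9 in KO cells.

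That separate site, 12 kb into Irak3 (chr10:120189327-120189848), lay on the other side of the 11.5 kb site from its neighbour at 10.4 kb. Here p65 was called at 30 min and not at 8 h. The heights were 39.8 in WT cells and 55.6 in KO cells, the latter 3.15 times (1.84 to 5.78) the untreated KO value of 17.6. SOCS1 was called there at 26.0 and 31.0 in untreated and 8 h WT cells and at 29.7 in KO cells at 30 min. Whether the 12 and 11.5 kb sites count as 2 depends on how peaks are joined. Joined by centres within 500 bp they form 1 site, with p65 at 39.8 and 136 at 30 min and 8 h in WT cells (ratio 3.42) and at 17.6, 55.6 and 218.7 in KO cells (8 h over 30 min 3.93), and with SOCS1 in 3 libraries.

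The start of Irak3 (chr10:120201672-120202278, over both promoters printed above) had p65 at 14.3 in untreated WT cells and 46.2 at 30 min, a ratio of 3.23 (1.68 to 6.8). KO cells gave 65.1 at 30 min and 116.8 at 8 h. No p65 peak was called there in WT cells at 8 h, but an adjoining site 0.421 kb into the gene, chosen after its values were seen, had p65 at 54.4 and 69.9 at 30 min and 8 h in WT cells. The KO ratio of 8 h to 30 min at the start, 1.79 (1.39 to 2.32), turned to 0.81 per bp of peak, against a median of 0.551 per bp over all sites. At 30 min KO stood above WT by 1.41 (1.03 to 1.95), but at 0.86 when the score with 1 tag per bp replaced the tag count. The WT and KO peaks in this ratio did not overlap each other (chr10:120201991-120202245 and chr10:120201672-120201894). SOCS1 heights at the start were 25.1 in WT cells at 30 min and 43.5 and 57.1 in untreated and 30 min KO cells, a KO over WT ratio of 2.27 at 30 min (1.38 to 3.84), or 1.3 per bp, against a median of 1.5 over all SOCS1 sites.

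Of the other Irak3 sites called in many libraries, 2 lay beyond its ends and 1 inside the gene. The site 60.7 kb from the start, just past the far end (chr10:120140481-120141381), had p65 at 62.3 in WT cells at 8 h and at 25.6, 52.3 and 90.0 in KO cells. A WT peak of 58.2 at 30 min lay 69 bp from this site and was counted as a site of its own. The KO ratio of 8 h to 30 min, 1.72 (1.29 to 2.3), became 0.776 per bp, against a median of 0.551 per bp over all sites. SOCS1 there was 27.9 in WT cells at 8 h and 48.4, 39.0 and 36.0 in KO cells. The site 7.25 kb before the start, inside the neighbouring gene Tmbim4, had p65 at 16.3, 38.3 and 37.3 in WT cells and at 31.5 and 50.5 in KO cells after LPS. In KO cells SOCS1 there was 54.0 before LPS, 16.5 at 30 min (ratio 0.305, 0.158 to 0.559) and 28.3 at 8 h; in WT cells it was called once, at 24.1 at 30 min. The peaks joined in this site had centres up to 1126 bp apart, and the KO peaks of SOCS1 at 30 min and 8 h did not overlap each other. At 37.9 kb, inside the gene, the p65 heights were 18.2, 29.7 and 24.1 in WT cells and 27.1 and 38.6 in KO cells after LPS, while SOCS1 was highest in untreated KO cells at 53.4. The other 12 sites of Irak3, including those at 10.4 and 0.421 kb, ranged from 8.26 to 153 at their highest.

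Tollip, the adaptor that holds IRAK1 back, had low peaks close to its start and no others. The site 0.562 kb into the gene (chr7:141901489-141902309) had p65 at 15 and 21 in untreated and 30 min WT cells, and at 14.9 and 16.4 in KO cells at 30 min and 8 h. SOCS1 gave 14.9 in WT cells at 30 min and 14.2 in KO cells at 8 h. The WT ratio of 30 min to control, 1.41, had an interval of 0.685 to 3.08. At 1.63 kb the p65 heights at 30 min were 25.1 in WT and 17.9 in KO cells (ratio 0.712, 0.427 to 1.19), and SOCS1 gave 18.0 in untreated KO cells.

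Traf6, the ligase that links the IRAKs to TAK1, also had modest peaks. The site 0.883 kb into the gene (chr2:101678973-101679634) was a p65 site after LPS alone, at 28.5 and 19.4 at 30 min and 8 h in WT cells and 39.1 and 31.4 in KO cells, with no SOCS1 peak in any library. The KO values were 1.37 (0.912 to 2.09) and 1.62 (0.912 to 2.95) times the WT values, both within counting error. At 30 min the WT and KO peaks of this site did not overlap each other (chr2:101679013-101679267 and chr2:101679412-101679634). The site 20.9 kb into the gene (chr2:101698819-101699759) was called in 7 libraries, with p65 at 15.6, 23.3 and 17.5 in WT cells and 26.0 and 25.9 in KO cells after LPS. Its highest value was that of SOCS1 in untreated WT cells, 31.7. SOCS1 was called there once more, at 15.4 in KO cells at 8 h.

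Traf3 had the highest peaks of the 10 genes. The site 6.39 kb before its start (chr12:111159677-111160283) had p65 at 57.2, 201.9 and 83.1 in WT cells and at 41.0, 234.9 and 107.3 in KO cells, in control, 30 min and 8 h cells. It was the site called in all 12 libraries, a property shared by 208 sites of the series. The ratio of 30 min to control was 3.53 (2.56 to 4.97) in WT cells and 5.73 (4.08 to 8.3) in KO cells. Divided by the median of all sites these ratios were 1.91 and 3.04, and by the score with 1 tag per bp they were 1.57 and 2.69. The 30 min heights of the genotypes differed by 1.16 (0.997 to 1.36). From 30 min to 8 h the ratio was 0.412 (0.32 to 0.525) in WT and 0.457 (0.369 to 0.561) in KO cells; with the score, which is capped by peak width, it was 0.682 and 1, and per bp of peak 0.439 and 0.206.

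SOCS1 at this upstream site was likewise highest at 30 min, with 46.2, 99.0 and 25.8 in WT cells. The ratio of 30 min to control was 2.14 (1.42 to 3.31) and that of 8 h to 30 min 0.26 (0.16 to 0.409). In KO cells SOCS1 stood at 78.2, 144.4 and 77.9, with 30 min at 1.85 times control (1.36 to 2.53) and 8 h at 0.539 of 30 min (0.391 to 0.736), or 1.07 by the score. SOCS1 in KO cells stood above WT at each treatment, at 1.69 times WT before LPS (interval 1.09 to 2.68). The ratio was 1.46 (1.11 to 1.92) after 30 min of LPS and 3.02 (1.86 to 5.05) after 8 h. Over all SOCS1 sites called in both genotypes the median ratios were 1.55, 1.5 and 1.55, so the values before LPS and at 30 min were close to the shift of the whole lists. The difference in untreated cells turned to 0.773 by the score, and that at 30 min to 0.832 per bp and 0.972 divided by the median of all sites. The 8 h difference kept its direction under each alternative run.

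The Traf3 site 20.6 kb into the gene (chr12:111186648-111187295) had a similar p65 course. It was not called in untreated WT cells and stood at 183.9 and 86.4 at 30 min and 8 h; in KO cells it had 37.6, 218.9 and 91.8. The KO ratio of 30 min to control was 5.83 (4.08 to 8.59), and the ratios of 8 h to 30 min were 0.47 (0.365 to 0.6) in WT and 0.42 (0.334 to 0.523) in KO cells, or 0.732 and 0.81 by the score and 0.501 and 0.189 per bp. SOCS1 gave 79.5 and 37.9 after LPS in WT cells and 34.1, 138.9 and 40.5 in KO cells. At 30 min SOCS1 in KO cells was 1.75 times WT (1.31 to 2.35), a ratio that was 0.997 per bp of peak. The p65 peak centres after LPS lay within 44 bp of each other at the upstream site and within 17 bp at this one.

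Near the Traf3 start the peaks were lower. At 0.607 kb before the start (chr12:111165361-111166166), p65 gave 36.0 in WT cells at 30 min and 27.9 and 29.6 in untreated and 30 min KO cells. SOCS1 there gave 15.8 in WT cells at 8 h and 32.4 and 23.2 in KO cells after LPS. At 0.9 kb into the gene, p65 gave 19.5, 32.3 and 19.8 in WT cells and 19.3 and 46.8 in untreated and 8 h KO cells. SOCS1 gave 19.5 and 12.1 in untreated and 8 h WT cells and 29.1 and 16.7 in KO cells after LPS. The other 6 Traf3 sites reached at most 31.0.

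**Figure D4:**
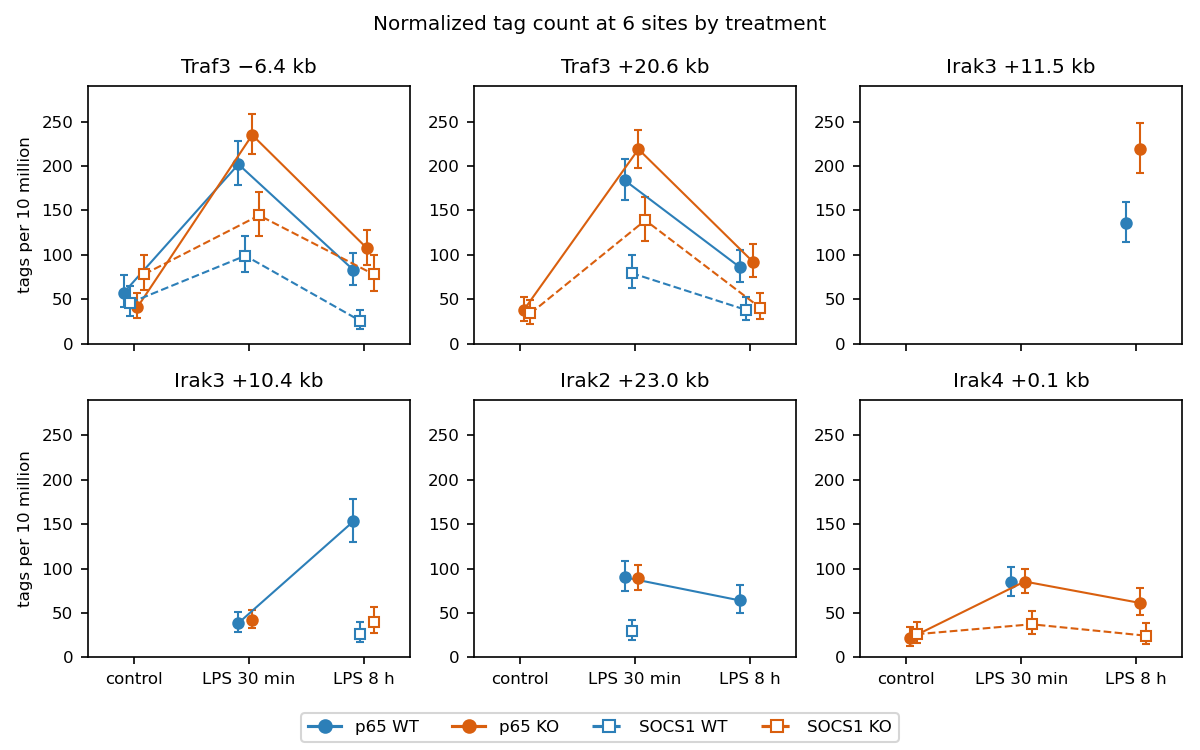
Points give the normalized tag count (y axis, tags per 10000000) at 6 sites by treatment (x axis), filled circles for p65 and open squares for SOCS1, blue WT and orange KO; bars are exact 95% Poisson intervals of the tag count, and a missing point means no called peak. Both Traf3 sites peak at 30 min, the Irak3 sites 11.5 and 10.4 kb into the gene are highest at 8 h in WT cells, and Irak4 has p65 values of 84.4 and 85.4 at 30 min.

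Map3k7, which encodes TAK1, had low peaks. Its site nearest the start (0.487 kb before the start, chr4:31963209-31964031) had p65 at 19.1 and 24.1 at 30 min in WT and KO cells and was not called with p65 at the other times. SOCS1 gave 15.4 in WT cells at 30 min, and 26.1 and 22.0 in untreated and 30 min KO cells. The peaks joined in this site had centres up to 582 bp apart. The other 4 sites of the gene reached at most 22.3, and no Map3k7 peak was called in KO cells at 8 h with either antibody.

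Tab1, the activator of TAK1, had a site 0.6 kb inside the lower end of its span (chr15:80133384-80134044), called in 10 libraries, including all 6 of p65. The p65 heights were 18.2, 39.4 and 23.1 in WT cells and 37.0, 21.2 and 45.0 in KO cells. In WT cells 30 min was thus the highest of the 3 heights and in KO cells the lowest. The KO peaks were 352, 222 and 492 bp wide. Per bp of peak the KO ratio was 0.908 for 30 min over control and 0.958 for 8 h over 30 min. The medians over all sites were 2.99 and 0.551 per bp. The part of peak width in the KO order was not tested. At 30 min KO stood at 0.537 of WT (0.345 to 0.828), but the KO library had another peak of 30.1 beside it, at chr15:80133114-80133336. In untreated cells KO stood at 2.03 times WT, with a counting interval that began at 1.06. SOCS1 gave 18.9 in WT cells at 8 h and 64.6, 62.6 and 25.1 in KO cells, where 8 h was 0.401 of 30 min (0.227 to 0.681).

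Tab2, which tethers TAK1 to ubiquitin chains, had its highest site 29.0 kb from the nearest start (chr10:7923731-7924445). The p65 heights after LPS were 43.2 and 30.7 in WT cells and 34.4 and 95.9 in KO cells, with no peak before LPS. The KO peak at 30 min began at the base where the KO peak at 8 h ended. The KO over WT ratio at 8 h, 3.13 (2.09 to 4.79), was the largest of the 16 member sites called in both libraries; it was 1.51 per bp and 1.9 divided by the median of all sites. SOCS1 gave 13.7 in WT cells at 8 h and 28.0 and 24.4 in KO cells after LPS. Near a start (1.03 kb, chr10:7954820-7955367), SOCS1 was called in all 3 WT libraries at 29.6, 20.0 and 19.5 and in untreated KO cells at 40.3. The p65 values there were 13.7 and 28.8 in untreated and 8 h WT cells (ratio 2.11, 1.02 to 4.74), with none in KO cells. The other 10 Tab2 sites reached at most 52.9.

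Counted over sites called in both libraries of a comparison, p65 at 30 min was 2 or more times the control at 6 of 12 member sites in WT cells (44.6% of all sites) and at 5 of 8 in KO cells (46.6%). The WT sites lay at Irak2 (16.1 and 6.89 kb into the gene), Irak3 (at the start and inside Tmbim4), upstream of Traf3 and at Tab1. The KO sites were the start of Irak4, Irak3 at 60.7 and 12 kb and both high sites of Traf3. The median ratios were 1.91 and 2.6, against 1.85 and 1.88 over all sites. Divided by those medians, 1 of the 12 and 3 of the 8 were at 2 or more. From 30 min to 8 h, 3 of 19 sites in WT cells were at 0.5 or less (22.3% of all sites), namely both high Traf3 sites and an Irak3 site 49.9 kb from the start. In KO cells 3 of 17 sites were at 0.5 or less (7.53%), at the same positions, and 3 of 17 at 2 or more (20.6%), at Tab1 and at Tab2 29.0 and 16.8 kb from its nearest start. Per bp of peak these KO counts became 10 and 0, with a median ratio of 0.551 over all sites. The shares of all sites per bp were not worked out.

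Between genotypes at 30 min, none of 29 member sites had a p65 ratio of 2 or more or of 0.5 or less (1.2% of all sites for each), and the median was 1.05. At 8 h, 4 of 16 sites were at 2 or more in KO cells (31.8% of all sites), with a median of 1.65, the same as over all sites. They were the Tab2 sites at 29.0 and 16.8 kb, Traf3 at 0.9 kb and Irak3 at 23.8 kb. Per bp of peak none of the 16 was at 2 or more, where the median over all sites was 0.796. In untreated cells 4 sites were called in both, with 1 at 2 or more (4.51%), that of Tab1.

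For SOCS1, 2 member sites were called in both the control and 30 min WT libraries, with 1 at 2 or more (10.8% of all sites), the upstream Traf3 site. In KO cells 1 of 10 was at 2 or more (10.1%), the inner Traf3 site, and 2 at 0.5 or less (11%), both at Irak3. From 30 min to 8 h, 3 of 6 sites in WT cells (23.6%) and 2 of 10 in KO cells (18.1%) were at 0.5 or less. The WT sites were the 2 high sites of Traf3 and the one 54.4 kb into Irak2, and the KO sites were the inner Traf3 site and that of Tab1.

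Sites with peaks of both antibodies numbered 6, 15 and 12 in WT cells and 5, 17 and 12 in KO cells (control, 30 min, 8 h). They belonged to 5, 6 and 6 genes in WT cells, where 13.4%, 38.6% and 33.6% of all genes had such a site. In KO cells they belonged to 4, 8 and 7 genes (20.9%, 43.1% and 33.7%). Traf3 and Irak3 had a shared site in all 6 pairs of libraries. Irak4 had one in each KO pair and in no WT pair, a difference in which the part of IgG was not tested. Of the member SOCS1 sites in WT cells, 66.7%, 57.7% and 66.7% held a p65 peak, against 28.9%, 60.3% and 74.5% of all SOCS1 sites. In KO cells the shares were 20.83%, 70.83% and 66.67%, against 18.21%, 66.23% and 59.25%. Of the member p65 sites in WT cells, 46.15%, 38.46% and 36.36% held a SOCS1 peak, against 28.28%, 32.69% and 33.23% of all p65 sites. In KO cells these were 35.71%, 44.74% and 54.55%, against 41.27%, 31.02% and 35.84%. Libraries of the same genotype and treatment were called against the same IgG library.

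Among 37 other genes of the pathway (receptor and adaptors, other TRAFs, ubiquitin enzymes, IKK and MAP kinases), p65 peaks were called at 23, 35 and 34 in WT cells and 25, 36 and 32 in KO cells. SOCS1 peaks were called at 23, 30 and 31 and at 32, 32 and 28. Over all genes the shares ran from 32.7% to 65.4% for p65 and from 32.4% to 55.3% for SOCS1. In each role the gene with the highest p65 value is given. In KO cells the p65 peaks were 222 bp wide at 30 min and 492 bp at 8 h. Their heights at these times are therefore not on the same width. Values per bp were not worked out for these genes. Cd14, the LPS co-receptor, reached 338.9 at 30 min and 243.2 at 8 h in WT cells and 435.6 at 30 min in KO cells. Traf2, which acts below TNF receptors, had the reverse order of times, with 81.8 and 272.4 in WT cells and 158.7 and 323.7 in KO cells. Ube2n, the ubiquitin-conjugating partner of TRAF6, had 95 and 133.1 in WT cells and 90.3 and 130.5 in KO cells. Tbk1, the kinase that TRAF3 recruits, had 69.8 and 76.0 in WT cells and 148.2 at 8 h in KO cells. Map2k3, in the p38 arm, had 83.3 and 46.7 in WT cells and 113.9 and 222.3 in KO cells, while Tab3, the relative of TAB2, reached at most 19.5.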

How the data were processed

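CUT&RUN libraries for p65 and SOCS1 in WT and KO macrophages were used, 1 per antibody, genotype and treatment (12 of 20 samples). Per the submitters' processing notes, reads were handled with cutadapt, Bowtie2 2.4.1, mm10 and HOMER 4.11. Per the file headers, the authors called peaks with findPeaks in each library against IgG of the same genotype and treatment, at an FDR of 0.001 and at least 4-fold over IgG and over the surrounding 10 kb (Poisson p of 0.0001), with peak width set per library. The deposited signal is the tag count of a peak scaled by the authors to 10000000 tags. The deposited score is the authors' findPeaks score, limited to 1 tag per bp and not scaled to depth. The deposited fold or ratio over the local background was used to filter in an alternative, and the authors' expected count of IgG tags, with a floor of 0.5, was subtracted in another. The p-value, percent and fraction columns the authors deposited were not used.

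Peaks were joined into sites by an overlap of 1 bp, the highest peak per list was kept, and sites were assigned to genes with RefSeq spans of GRCm38.p6, a table without exons or introns (Python 3.11.15, pandas 2.3.3, scipy 1.17.1). A ratio can therefore compare peaks of 1 site that do not overlap each other. Sites described in full were, for each gene, that in the most lists and the highest, plus every site in 6 or more lists. A site without a peak in a list has no value there and is not taken as unbound. Ratios of 2 or more, or 0.5 or less, were counted beside all sites. The genes, lists and alternatives were chosen with earlier results of these data known. The site merging and intervals were tested on simulated data. An E. coli spike-in named in the labels was not used here. Alternatives covered the gene window, the site definition, a stricter local fold, peak width, IgG tags, median scaling and, added after seeing the data, the score scaled to depth.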

Additional observations from a re-analysis of the deposited data

Results flagged for a closer look

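The p65 site 0.6 kb inside the lower end of the Tab1 span was flagged because the libraries of the 2 genotypes moved in opposite directions. From control to 30 min the ratio was 2.16 in WT cells (18.2 to 39.4) and 0.572 in KO cells (37.0 to 21.2). From 30 min to 8 h it was 0.587 in WT cells (39.4 to 23.1) and 2.13 in KO cells (21.2 to 45.0). Each counting interval lay away from 1, but with 1 library per group the difference between genotypes was not tested. In KO cells at 30 min another p65 peak of 30.1 was called beside the site. With that peak joined to it by centres within 500 bp, the KO ratios were 0.814 for 30 min over control and 1.5 for 8 h over 30 min. Per bp of peak they were 0.908 and 0.958, and by the score 0.876 and 2.09. Over all sites the KO medians per bp were 2.99 and 0.551.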

How the results depend on the processing

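No paired analysis was possible because each antibody, genotype and treatment had 1 library; for the same reason no replicate could be left out. At the sites described in full, 61 ratios had a counting interval that left out 1. Run under the alternatives, these gave 305 values. Of those, 239 stayed within the interval, 47 moved outside it and 19 changed direction. Subtracting IgG tags or joining sites by centres moved none of the 61 outside it. A call needed at least 4-fold over IgG, which limits what the subtraction can change. Joining by centres mostly leaves sites without a close neighbour as they were. Neither result is therefore strong evidence of stability. Division by the median moved 19 and reversed 4. Per bp of peak 12 moved and 9 reversed, and by the score 16 and 6. The cause of these shifts was not tested. Peak width enters the per bp values directly. Depth limits the low sites: the 280 peaks at member sites held 9.5 to 433 tags, with a median of 28.

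With only peaks at least 8-fold above the local background, p65 member sites numbered 6, 12 and 15 in WT and 6, 19 and 6 in KO cells (control, 30 min, 8 h), and SOCS1 sites 5, 12 and 6, and 15, 10 and 7. Without this filter the p65 sites numbered 13, 39 and 33 in WT and 14, 38 and 22 in KO cells. In WT cells these were 14.94%, 44.83% and 37.93% of member sites, against 9.961%, 36.96% and 31.53% of all sites. In KO cells they were 16.09%, 43.68% and 25.29%, against 11.06%, 43.97% and 26.69%. The SOCS1 sites numbered 9, 26 and 18, and 24, 24 and 18. The WT shares were 10.34%, 29.89% and 20.69%, against 9.745%, 20.02% and 14.07%. The KO shares were 27.59%, 27.59% and 20.69%, against 25.07%, 20.59% and 16.14%. With the filter, genes with a peak in KO cells at 8 h were 4 for p65 and 4 for SOCS1, against 9 and 9 without it. Sites of both antibodies were then 3, 7 and 5 in WT cells and 8 and 5 in KO cells after LPS. The shares over all sites and all genes were not worked out with the filter.

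Divided by the median ratio of all sites, p65 counts at 2 or more, and at 0.5 or less, were 1 and 1 for 30 min over control in WT cells, 3 and 1 in KO cells, and 2 and 1 for 8 h over 30 min in WT cells. For 8 h over 30 min in KO cells 1 site was at 2 or more, and for KO over WT at 8 h 0. Joining sites by centres within 500 bp gave 2 at 2 or more for 8 h over 30 min in WT cells. By the score (chosen after seeing the data), 8 h over 30 min gave 1 at 0.5 or less in WT cells, and 5 at 2 or more and 0 at 0.5 or less in KO cells. Per bp of peak, KO cells gave 0 at 2 or more and 10 at 0.5 or less for 8 h over 30 min, and 0 at 2 or more for KO over WT at 8 h. The medians of all sites per bp were 0.551 and 0.796. Shares of all sites were not worked out under these alternatives.

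Ratios that changed direction for p65 from 30 min to 8 h were, in WT cells, Irak2 at 23 kb (1.02 by the median). In KO cells they were, per bp, Irak3 at 60.7 kb (0.776), at the start (0.81) and inside Tmbim4 (0.723) and Tab1 (0.958), and by the score the upstream Traf3 site (1) and Irak4 (1.15). For p65 in KO over WT cells they were the Irak3 start at 30 min (0.86 by the score) and, at 8 h, Irak3 at 60.7 kb (0.699 per bp, 0.877 by the median), Irak3 at 11.5 kb (0.778 and 0.977) and Tab1 (0.942 per bp). For SOCS1 they were, by the score, Irak3 inside Tmbim4 for KO 8 h over control (1.38) and the upstream Traf3 site for KO 8 h over 30 min (1.07) and for KO over WT in control cells (0.773). At 30 min, KO over WT became 0.832 per bp and 0.972 by the median at that site, and 0.997 per bp at the inner Traf3 site. For p65 the median of all sites per bp was 0.551 for KO 8 h over 30 min and 0.796 for KO over WT at 8 h.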
